A study of Mus musculus with 74 samples.

Results

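Thermal, mechanical and acid sensing channels are described here through 9 genes: Trpv1, Trpv2, Trpa1, Trpm8, Trpm3, Piezo2, Asic1, Asic2 and Asic3. They were chosen by name, as the channels through which sensory neurons detect heat, cold, irritants, touch and acid, and all 9 were found among the 53379 genes of the count files. All 9 also passed the low count filter in each comparison.

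Sensory neurons of the dorsal root ganglion (DRG) carry signals from skin, muscle and viscera to the spinal cord, and their transduction channels set which stimuli each neuron responds to. The TRP channels are cation channels opened by temperature or chemical ligands. Trpv1 responds to noxious heat, capsaicin and protons, Trpa1 to pungent irritants, Trpm8 to cold and menthol, and Trpm3 to heat and pregnenolone sulfate, while Trpv2 is known from medium and large diameter neurons. Piezo2 is the stretch-gated channel of light touch and proprioception. Asic1, Asic2 and Asic3 encode proton-gated sodium channels of the epithelial sodium channel family, which assemble as trimers and open when tissue turns acid.

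RNA was sequenced from the L4 DRG of adult female mice. Whole ganglia came from wild type C57BL/6 mice aged 10-12 weeks, 4 uninjured and 4 taken 1 day after spinal cord injury (SCI). The SCI was a transverse cut of the dorsal column at T9/10. Sorted neurons came from Thy1YFP16 mice aged 10-20 weeks, in which the Thy1 promoter drives YFP in large diameter neurons whose central branch ascends the spinal cord, and YFP-positive cells were sorted into 3 wells per mouse after papain and collagenase dissociation. The 22 sorted mice were 6 naive mice, 4 mice each at day 1 and day 3 after sciatic nerve crush (SNI), which injures the peripheral branch, and 4 mice each at day 1 and day 3 after SCI. The comparisons asked how injury of the peripheral or the central branch changes gene expression in these neurons.

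Whole DRG libraries held 21959030 to 44493319 reads on genes, and the sorted mice, with the wells summed, held 30518187 to 83599972 (median 50678522, n = 22). Single wells were shallower and more uneven, with 1494217 to 49015375 reads. Levels below are in CPM, a gene's reads scaled by the total on genes of its library, and a gene is called where its adjusted p is under 0.1 in edgeR's quasi-likelihood test over all genes tested. Between groups of sorted neurons the fitted log2 fold change is adjusted for 2 RUVr factors (factors of unwanted variation estimated from residuals), so that it can depart from the ratio of mean CPM. Sorted naive mice against whole DRG were fitted with no such factor.

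Marker genes set the frame for the channels. The 8 neuronal markers summed to a median of 13780 CPM in uninjured whole DRG and 27940 CPM in sorted naive mice. The 8 nociceptor markers summed to 6004 CPM in whole DRG against a median of 2496 CPM in sorted naive mice, where the range was 444 to 15920 CPM, and Mrgprd, a marker of nonpeptidergic nociceptors, had a log2 fold change of -11.29 (adjusted p = 0.000998, edgeR). The 7 large-fibre markers summed to medians of 3922 and 4408 CPM. Pvalb, the marker of proprioceptors, was 3.07 higher on the log2 scale in sorted naive mice (adjusted p = 0.0932, edgeR), and Runx3, another proprioceptor marker, 3.50 higher (adjusted p = 0.0685). Endothelial and macrophage markers, at 46.5 and 42.9 CPM in whole DRG, had medians of 0.153 and 1.07 CPM in sorted naive mice.

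Glia genes did not fall away with sorting. The 9 satellite and Schwann cell markers summed to a median of 14710 CPM in sorted naive mice (range 6516 to 75340) against 7696 CPM in uninjured whole DRG. Single wells carried part of this: in 20 of the 66 wells the glia markers held more reads than the neuronal markers. In these wells the neuronal markers took a median of 0.0296% of reads, against 3.27% in the other 46 wells. The ranges overlapped, at 0.0082% to 2.00% in the glia-rich wells and 1.46% to 4.19% in the others. Glia markers took a median of 7.62% of reads in the glia-rich wells and 0.644% in the others, against 0.770% in uninjured whole DRG. Such glia-rich wells occurred in 14 of the 22 mice, 6 wells in the naive group, 3 each at SNI day 1 and SCI day 1, and 4 each at SNI day 3 and SCI day 3. Mouse 3 of SNI day 3 and mouse 3 of SCI day 3 had no other well. Their neuronal markers summed to 11970 and 3920 CPM, against 6297 and 6062 CPM in naive mice 5 and 6. Results in sorted neurons are therefore given with all wells and without the glia-rich wells. Without them, Pvalb and Runx3 were 3.92 and 3.25 higher on the log2 scale in sorted naive mice than in whole DRG, while Ntrk2, of the same large-fibre list, was called lower (log2 fold change -3.33, adjusted p = 0.0233, edgeR). The wells kept were not free of glia RNA. In the same fit the glia markers Pmp22, Mbp and S100b were called higher than in whole DRG, at 3.55, 1.90 and 2.05 on the log2 scale. Apoe, of the same list, was called lower, at -6.61. In these bulk samples, fewer cells of a type and less RNA per cell cannot be told apart.

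In uninjured whole DRG the 9 channels spanned a wide range of levels per length, compared here in RPKM, which is CPM per kilobase of exon. Trpv1 was highest at a median of 40.2 RPKM, followed by Piezo2 at 29.6. Asic3 at 23.7, Asic1 at 23.0 and Trpv2 at 21.5 came next, and the ranges of Asic3 and Asic1 overlapped over the 4 mice. Trpa1 stood at 17.2 and Asic2 at 15.3, again with overlapping ranges, Trpm8 at 8.23 and Trpm3 at 1.76 RPKM. This order depends on the length used, the union of all exons: 3681 bases for Trpv1, 17162 for Piezo2 and 24437 for Trpm3. In CPM the median of Piezo2 (508.6) was above that of Trpv1 (148.0), and that of Trpm3 (43.0) above that of Trpm8 (38.95). The transcripts of Trpm8 and Trpm3 share exon bases with genes on the opposite strand, and since the strand setting of the counting is not given in the sources used here, their reads are uncertain to that extent.

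At day 1 after spinal cord injury, 1 of the 9 channels was called in whole DRG. Asic3, the acid sensor with the greatest sensitivity to mild acidification, stood at 54.2, 57.7, 61.5 and 57.4 CPM in the uninjured mice and at 65.0, 69.1, 74.4 and 72.2 CPM after SCI. Every SCI mouse lay above every uninjured mouse. The log2 fold change was 0.27 (SE 0.0651, 95% interval 0.14 to 0.39), with an adjusted p of 0.0917 in edgeR, just inside the threshold, and an adjusted p of 0.0122 in DESeq2. The size was 1.20-fold. The call was lost in 7 of the 8 fits with 1 mouse left out, where the adjusted p ran from 0.0883 to 0.242, and was kept without SCI mouse 3. The adjusted p was 0.104, 0.242, 0.170 and 0.220 without uninjured mice 1 to 4, and 0.135, 0.187 and 0.185 without SCI mice 1, 2 and 4 (edgeR). It was also lost with the replicate number as a block (adjusted p = 0.193) or without the low count filter (adjusted p = 0.138).

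Trpv2 lay on the other side in the same tissue. The 4 uninjured mice held 94.2 to 100.1 CPM and the 4 SCI mice 86.0 to 93.4 CPM, so the groups did not overlap, but the log2 fold change of -0.12 (SE 0.0593) did not pass the test (adjusted p = 0.388, edgeR). The remaining channels overlapped between the groups. Piezo2 stood at 523 ± 34.5 CPM (SD, n = 4) in uninjured mice and 561 ± 88.2 CPM after SCI, where mouse 3 alone reached 688.6 CPM. Asic1 stood at 136 ± 9.40 and 121 ± 14.0 CPM, with a log2 fold change of -0.19 (adjusted p = 0.372). The other 5, Trpv1, Trpa1, Trpm8, Trpm3 and Asic2, had log2 fold changes of -0.03 to 0.11.

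Against all genes, 1 of 9 channels called compares with 2.32% of the 17616 genes tested, and 2 of 9 channels with groups that did not overlap compares with 10.6%. The median log2 fold change of the channels was 0.07 beside 0.01 for all genes. Markers of other cell types moved in the same comparison: the haemoglobin genes Hba-a1 and Hbb-bs were higher by 1.62 and 1.84 on the log2 scale, and Cx3cr1 of macrophages, Lum of fibroblasts and Mrgprd of nociceptors were lower, at -0.62, -0.71 and -0.32. The lists they belong to did not fall as a whole: the medians of the summed markers before and after SCI were 42.9 and 47.6 CPM for macrophages, 339 and 359 CPM for fibroblasts and 6004 and 6105 CPM for nociceptors. The summed glia markers were 7244 to 8007 CPM before and 6428 to 7882 CPM after SCI. The part of cell makeup in the Asic3 difference was not tested.

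**Figure D1:**
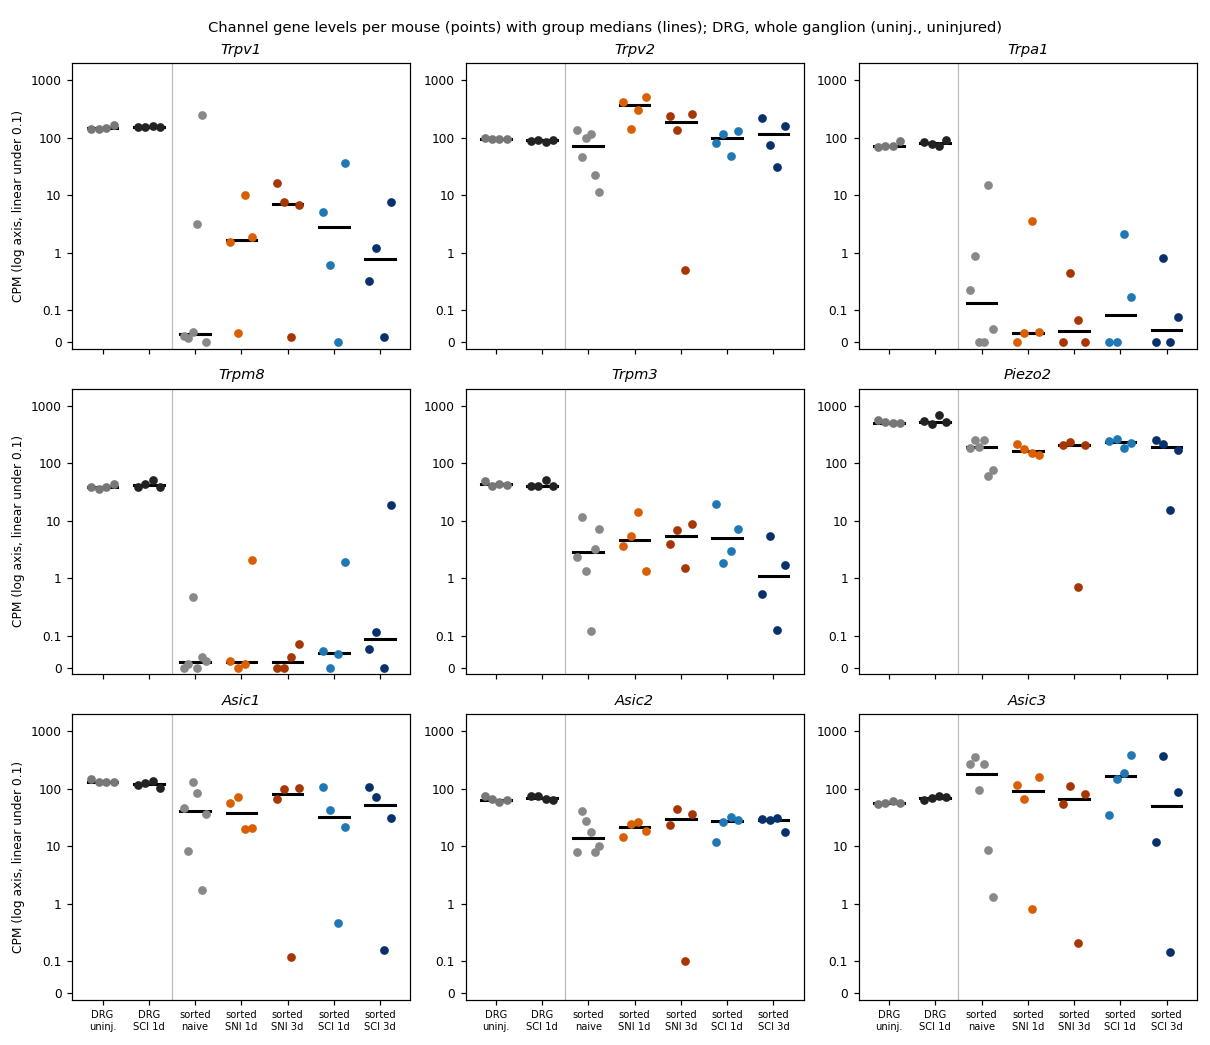
Level of each of the 9 channel genes in every mouse, in CPM (symmetric log axis that is linear under 0.1), in whole DRG and in the 5 groups of sorted neurons; each point is 1 mouse and each line a group median. Trpv2 lies above all naive mice in the 4 SNI day 1 mice, whereas Trpa1 and Trpm8 lie near 0 in most sorted mice with single mice far above the rest. Trpv1 is uneven, from 0 to 254 CPM over the naive mice.

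The channels also differed between sorted naive neurons and uninjured whole DRG, a comparison in which kit, strain, dissociation and sort cannot be told apart. Trpm8, the cold sensor, held 36.4 to 43.6 CPM in uninjured whole DRG and 0 to 0.474 CPM in the 6 sorted naive mice (log2 fold change -8.04, SE 1.20, adjusted p = 0.00297, edgeR). Trpm3 held 40.4 to 48.8 CPM in whole DRG against 0.122 to 11.5 CPM (log2 fold change -2.41, SE 0.925, adjusted p = 0.0847). Piezo2 held 500.0 to 573.5 CPM in whole DRG against 61.2 to 259 CPM (log2 fold change -0.92, SE 0.286, adjusted p = 0.0366). These 3 were the channels called, all lower in sorted neurons, and the share called among all genes was 30.8%. In 5 of the 9, these 3 with Trpa1 and Asic2, every sorted mouse lay below every whole DRG mouse, against 33.4% of all genes in that direction and 41.0% in either.

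Trpv1 could not be placed in this way. Among the naive sorted mice, 5 held 0 to 3.18 CPM and mouse 5 held 254 CPM, above the 140 to 165 CPM of whole DRG, so that the fitted log2 fold change of -0.41 had an SE of 2.27. The 8 nociceptor markers were also highest in mouse 5, where they summed to 15920 CPM, led by Calca at 11230 CPM and with Mrgprd at 0. In the other 5 they summed to 444 to 7736 CPM, and mouse 2, at 7736 CPM, held Trpv1 at 0.0134 CPM. Their part in the Trpv1 level was not tested. Trpa1, another nociceptor channel, stood at a median of 0.134 CPM with mouse 5 again highest at 14.9 CPM. Asic3 had a median of 181 CPM in sorted naive neurons (range 1.30 to 361) against 57.5 CPM in whole DRG, with a log2 fold change of 2.08 that did not pass the test (SE 0.955, adjusted p = 0.175, edgeR; DESeq2 called it). Trpv2, at a median of 73.4 CPM (range 11.6 to 136.8), had a log2 fold change of 0.20 and was not called.

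The number of channels called here depended on single mice and on scaling. With 1 mouse left out it ran from 2 to 6, and was 6 without naive mouse 5, which added Trpv1, Trpa1 and Asic3 (adjusted p = 0.0104, 0.00295 and 0.0944, edgeR). Asic3 was also called without naive mouse 6 (0.0350) and Asic2 without naive mouse 2 (0.0404). Trpm3 was lost without any 1 of the whole DRG mice (0.168, 0.153, 0.157 and 0.154) and without naive mouse 1 (0.145) or 3 (0.128). Piezo2 and Trpm8 were called in each of the 10 leave-outs. Scaling by library size alone called 5 channels, adding Trpa1 and Asic2, and moved the median of all genes from 0.29 to -0.48 on the log2 scale. With it, 1941 genes were higher and 4626 lower in sorted neurons, against 3259 and 3062 with TMM scaling. Trpv2 turned from 0.20 to -0.42. Without glia-rich wells 2 channels, Trpm8 and Trpm3, were called beside 34.2% of all genes, and the adjusted p of Piezo2 was 0.108; again 5 channels lay wholly below whole DRG, beside 36.6% of all genes in that direction and 44.8% in either.

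Per length, the order in sorted naive neurons was led by Asic3 at a median of 74.7 RPKM, followed by Trpv2 at 16.4, Piezo2 at 11.1, Asic1 at 7.28 and Asic2 at 3.27. The ranges of neighbours among these 5 overlapped over the 6 mice, and Trpm3, at 0.116 RPKM, lay apart from Asic2 and below it. Trpa1 at 0.0315, Trpv1 at 0.0074 and Trpm8 at 0.0036 RPKM ended the order. At SNI day 1 Trpv2 came first, at 82.0 RPKM, with Asic3 at 38.0, Piezo2 at 9.68, Asic1 at 6.75 and Asic2 at 5.01. Trpv2 also led at SNI day 3 (42.3 RPKM) and SCI day 3 (26.2 RPKM), while Asic3 led at SCI day 1 (69.9 RPKM). In each of these 4 groups the range of the leading gene overlapped that of the next. In each sorted group the same 5 genes, Asic1, Asic2, Asic3, Trpv2 and Piezo2, had the highest medians.

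Trpv2 was the channel that stood apart after nerve crush. It held 11.6 to 136.8 CPM in the 6 naive mice (median 73.4) and 426, 143, 310 and 506 CPM in the 4 mice at SNI day 1. All 4 lay above every naive mouse. The log2 fold change was 2.27 (SE 0.586, 4.82-fold), and with all wells it missed the threshold of edgeR, at an adjusted p of 0.119; DESeq2 called it at an adjusted p of 0.00957. In the edgeR test 0 of 9 channels were called at SNI day 1, beside 0.685% of 23507 genes. Trpv2 was the only channel at an unadjusted p under 0.05, as were 3519 genes in all, and the only 1 of 9 whose groups did not overlap, beside 1.85% of all genes.

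Without the glia-rich wells Trpv2 passed the test at SNI day 1. The 6 naive mice then held 21.6 to 153.6 CPM (median 77.1) and the 4 SNI mice 508, 171, 439 and 506 CPM. Naive mice 5 and 6, each with 2 of 3 wells left out, held the lowest naive levels, 51.9 and 21.6 CPM. The groups did not overlap here either, which held for 2.39% of all genes. The log2 fold change was 2.35 (SE 0.407, 95% interval 1.56 to 3.15, adjusted p = 0.0078, edgeR), and 8.17% of the 22620 genes tested were called, so a call in 1 of 9 channels was close to the background share. This call was kept with each of the 20 remaining mice left out in turn, at adjusted p-values of 0.00515 to 0.0282.

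Whether Trpv2 was called with all wells turned on single mice and on the count filter. It was called with the mean count filter (log2 fold change 2.34, adjusted p = 0.0837) and without SNI day 3 mouse 3 (adjusted p = 0.0201), SCI day 3 mouse 3 (0.0733), SNI day 1 mouse 2 (0.0968) or SCI day 3 mouse 2 (0.0990), all in edgeR. It was not called with fewer RUVr factors either: with 1 the log2 fold change was 2.31 (adjusted p = 0.205), and with none 2.21 (adjusted p = 0.452). The mice came in sets named FACS and FACS2018 in the labels. Single sets were always fitted with no RUVr factor, so both the mice and the model differ from the main fit. In FACS alone the log2 fold change was 1.57 (adjusted p = 0.408, edgeR), and in FACS2018 alone 3.78 (adjusted p = 0.727). With the replicate number as a block it was 2.04 (adjusted p = 0.325). In all these fits Trpv2 was higher at SNI day 1 than in naive mice.

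At SNI day 3 the Trpv2 levels parted into 3 mice at 244, 136 and 264 CPM and mouse 3, which had only glia-rich wells, at 0.497 CPM. With all wells the log2 fold change was 0.34 (SE 0.586, adjusted p = 0.887, edgeR). Without the glia-rich wells mouse 3 drops out, and the remaining 3 mice at 269, 136 and 264 CPM gave a log2 fold change of 1.39 (SE 0.446, adjusted p = 0.0839). They overlapped with the highest naive mouse. Trpv2 was then the 1 channel called of 9, beside 7.57% of all genes. With all wells edgeR called 0 of 9 beside 0.706%, with 1 channel and 2992 genes at an unadjusted p under 0.05, and DESeq2 called 0 channels. The call without glia-rich wells held in 15 of 20 leave-outs and was lost without naive mouse 5 or 6 (adjusted p = 0.118 and 0.148), SNI day 1 mouse 1 (0.102) or SNI day 3 mouse 1 or 4 (0.237 and 0.207). It was also lost with no RUVr factor (log2 fold change 1.35, adjusted p = 0.347). With all wells, Trpv2 was called without SNI day 3 mouse 3 (log2 fold change 1.59, adjusted p = 0.0920). Within the sets FACS and FACS2018, with no RUVr factor, the log2 fold change was 0.88 and 2.04.

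After SCI, Trpv2 was not called in sorted neurons. The 4 mice at day 1 held 82.2, 118, 48.3 and 132 CPM and the 4 at day 3 held 223, 74.2, 31.3 and 161 CPM, of which 2 at day 3 lay above the highest naive mouse. Log2 fold changes were 0.38 (adjusted p = 0.885) and 1.15 (adjusted p = 0.570) with all wells, and 0.44 and 1.03 without glia-rich wells (adjusted p = 0.613 and 0.281, edgeR).

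Piezo2, the touch and proprioception channel, stood at overlapping levels across the sorted groups wherever neuronal wells were present. It held 61.2 to 259 CPM in naive mice (median 190.5), 218, 179, 154 and 139 CPM at SNI day 1, and 242, 262, 186 and 225 CPM at SCI day 1. At day 3 mouse 3 of each injury stood far below the rest, at 0.719 CPM after SNI and 15.7 CPM after SCI, against 207 to 235 and 171 to 258 CPM in the other 3 mice. Both are the mice with glia-rich wells only. At SNI day 3 Piezo2 had an unadjusted p under 0.05 but was not called (log2 fold change -1.20, SE 0.454, adjusted p = 0.334, edgeR). It was called without naive mouse 5 (adjusted p = 0.0167) or naive mouse 6 (0.0271), and its log2 fold change was 0.05 without SNI day 3 mouse 3. Without the glia-rich wells it was 0.10 (SE 0.204, adjusted p = 0.856) at SNI day 3 and 0.06, 0.46 and 0.20 at SNI day 1, SCI day 1 and SCI day 3, none called. Within the sets FACS and FACS2018, with all wells and no RUVr factor, it was -0.10 and -0.29 at SNI day 3.

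The acid sensors varied widely between mice of the same group. Asic3 held 269, 361, 95.2 and 267 CPM in naive mice 1 to 4 but 8.70 and 1.30 CPM in naive mice 5 and 6. It held 117, 67.2, 0.827 and 158 CPM at SNI day 1 and 53.7, 112, 0.205 and 80.5 CPM at SNI day 3. The groups overlapped, and the direction differed between the sets: naive mice 5 and 6 are the naive mice of set FACS2018. In set FACS alone, with no RUVr factor, the log2 fold change was -1.38 at SNI day 1 and -1.68 at SNI day 3, and in set FACS2018 alone it was 3.12 and 2.05, none of them called. At SCI day 1 the mice held 35.4, 147, 192 and 395 CPM, and at SCI day 3 they held 12.1, 380.5, 0.143 and 88.9 CPM. Fitted log2 fold changes ran from -1.75 at SNI day 3 to 1.08 at SCI day 1, with adjusted p-values of 0.486 and 0.673 in edgeR. Without glia-rich wells they were -0.40 and 1.57. Within the sets FACS and FACS2018, with all wells and no RUVr factor, the SCI day 1 value was -1.42 and 5.11.

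Asic1, the most widely expressed acid sensor of the brain, ranged from 1.72 to 132 CPM in naive mice. It fell under 1 CPM in SNI day 3 mouse 3, SCI day 1 mouse 3 and SCI day 3 mouse 3. Its log2 fold changes were -0.69, -0.90, -0.87 and -1.39 at SNI day 1, SNI day 3, SCI day 1 and SCI day 3 with all wells, and -0.23, 0.60, -0.38 and 0.26 without glia-rich wells, so the sign at day 3 turned with the choice of wells. Asic2, which joins other ASIC subunits and alters their response, held 8.02 to 41.0 CPM in naive mice (median 13.95). Outside SNI day 3 mouse 3, at 0.103 CPM, the injured mice held 12.0 to 43.8 CPM. None of the Asic1 and Asic2 differences was called.

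Trpv1, Trpa1, Trpm8 and Trpm3, the heat, irritant and cold channels, were low in most sorted neurons, and for the first 3 of them a single well held most of the reads. For Trpv1, 1 well of naive mouse 5 at 597.8 CPM held 71.8% of the Trpv1 reads of all 66 wells. The same well, at 35.1 CPM, held 60.6% of the Trpa1 reads. For Trpm8, 1 well of SCI day 3 mouse 4 at 49.1 CPM held 79.7% of the reads. Trpm3 was spread more evenly, with a median of 2.64 CPM over the 46 neuronal wells and 6 of them at 0 reads. Its highest level, 96.25 CPM, was in a glia-rich well of SCI day 1 mouse 1 that held 11.5% of the reads.

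Fold changes of these 4 genes had wide errors. Trpm8 at SCI day 3 had a log2 fold change of 5.78 (SE 2.13, adjusted p = 0.502, edgeR), in which 1 mouse at 18.7 CPM faced 3 mice at 0 to 0.118 CPM. It was the only channel at an unadjusted p under 0.05 there. Trpv1 held 1.53, 0.0280, 10.1 and 1.87 CPM at SNI day 1 and 16.7, 7.56, 0.0171 and 6.67 CPM at SNI day 3, beside 5 naive mice at 0 to 3.18 CPM and naive mouse 5 at 254 CPM. Its log2 fold change at SNI day 3 without glia-rich wells was 3.27 (SE 1.62, adjusted p = 0.211), although the mean CPM was lower than in naive mice, 10.9 against 100.2. Leaving out naive mouse 4 as well brought a Trpv1 call at SNI day 1 and day 3 (adjusted p = 0.0882 and 0.0307).

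None of the 9 channels was called after SCI in sorted neurons, with or without glia-rich wells, by edgeR or, with all wells, by DESeq2. At day 1 the share called among all genes was 0.017% (0.217% without glia-rich wells), and DESeq2 called 1252 genes. With all wells 0 channels and 2981 genes had an unadjusted p under 0.05, and without glia-rich wells 1 channel and 3960 genes. At day 3 the share was 0.0% with all wells and 0.0% without glia-rich wells, and DESeq2 called 1221 genes. There 1 channel and 2208 genes had an unadjusted p under 0.05 with all wells, and 1 channel and 3299 genes without glia-rich wells. The median log2 fold change of the channels was 0.38 beside 0.18 for all genes at day 1 and -0.49 beside 0.01 at day 3. Without glia-rich wells these medians were 0.46 beside 0.38 and 0.38 beside 0.31. After SNI they were 0.26 beside 0.17 at day 1 and -0.90 beside -0.01 at day 3, and without glia-rich wells 0.55 beside 0.40 and 0.36 beside 0.39. These 4 comparisons share the naive mice.

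Nerve crush and spinal cord injury were also compared directly, which tests the difference between them. At day 1 Trpv2 was higher after SNI in every mouse (143 to 506 CPM against 48.3 to 132 CPM), with a log2 fold change of 1.89 (SE 0.641, adjusted p = 0.461, edgeR). With all wells 0 of 9 channels and 0.0% of all genes were called at day 1, while 1 channel and 2408 genes had an unadjusted p under 0.05 and DESeq2 called 0 channels and 1116 genes. Groups that did not overlap were found for 1 of 9 channels and 4.43% of all genes. Without glia-rich wells Trpv2 was called, with a log2 fold change of 1.91 (SE 0.442, adjusted p = 0.0876), beside 0.889% of all genes called and 5.56% not overlapping. That call was lost in 11 of 20 leave-outs, those without naive mice 3 and 4 (adjusted p = 0.119 and 0.105), SCI day 1 mice 1, 2 and 3 (0.191, 0.213 and 0.228), SCI day 3 mice 1 and 4 (0.110 and 0.104), SNI day 1 mice 1, 3 and 4 (0.193, 0.226 and 0.175) and SNI day 3 mouse 1 (0.104). It was also lost with no RUVr factor (0.345). With all wells and no RUVr factor the log2 fold change was 1.52 and 2.11 within the sets FACS and FACS2018.

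At day 3 no channel was called between the injuries in edgeR, where 0.0% of all genes were called with all wells and 0.0% without glia-rich wells. With all wells 0 channels and 1990 genes had an unadjusted p under 0.05, and without glia-rich wells 1 channel and 1679 genes. DESeq2 called 974 genes and 1 channel, Trpm8 (adjusted p = 0.0863), whose difference came from the single SCI mouse named above. Trpv2 had a log2 fold change of -0.81 (adjusted p = 0.766) with all wells and 0.36 (adjusted p = 0.936) without glia-rich wells. Asic3 was not called at either day, with log2 fold changes of -1.80 at day 1 (adjusted p = 0.552, edgeR) and -0.63 at day 3 (adjusted p = 0.921), and the groups overlapped. In set FACS alone, with no RUVr factor, the day 1 value was 0.04.

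**Figure D2:**
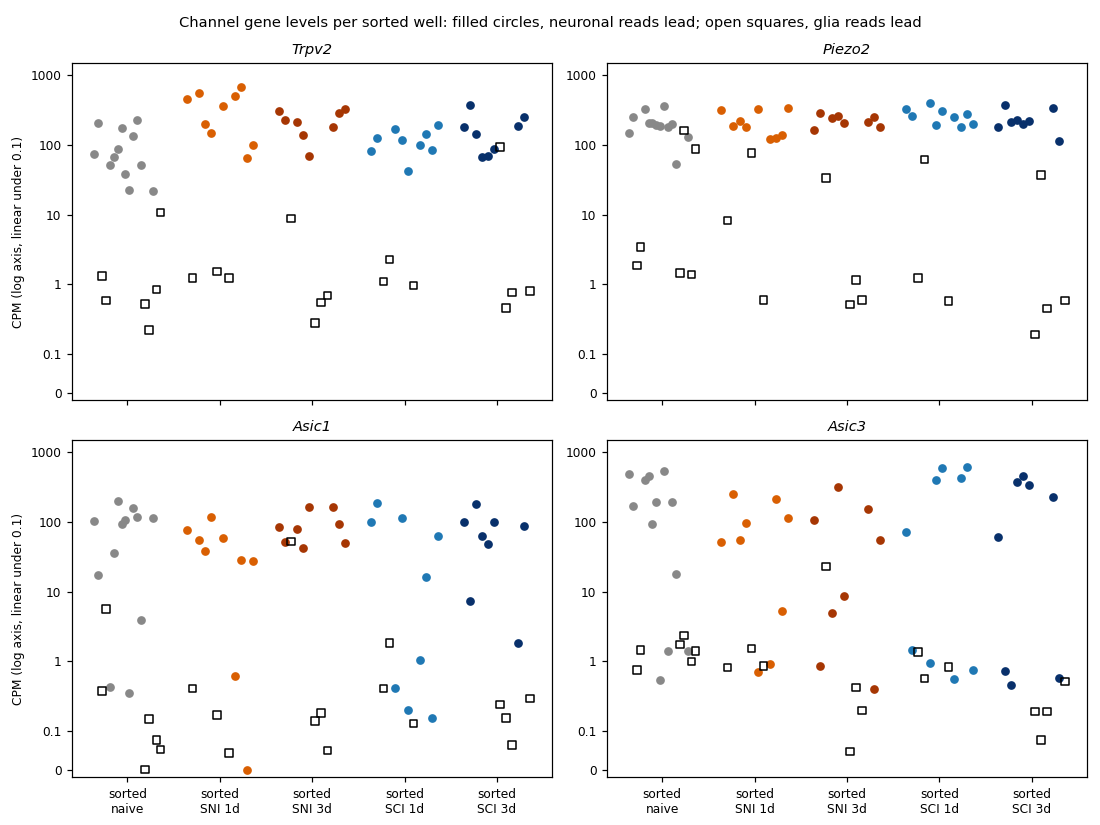
Level of Trpv2, Piezo2, Asic1 and Asic3 in each of the 66 sorted wells, as CPM on a symmetric log axis, by group; filled circles are wells in which neuronal markers held more reads than glia markers and open squares are the 20 glia-rich wells. Trpv2 and Piezo2 reach 10 CPM in all 46 filled wells, whereas Asic1 and Asic3 range from under 1 CPM to over 100 CPM among them.

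Single wells showed which channels were shared by every pool of neurons. Among the 46 wells led by neuronal reads, Trpv2 and Piezo2 reached 10 CPM in 46, Asic2 in 39, Asic1 in 35 and Asic3 in 29. Trpv1 reached it in 9, Trpm3 in 5, Trpa1 in 2 and Trpm8 in 1. Wells of the same mouse share that mouse, so these counts describe pools and are not a test. Asic1 and Asic3 both reached 10 CPM in 23 wells, Asic1 alone in 12, Asic3 alone in 6, and neither did in 5. Asic1 lay under 1 CPM in 7 of these wells and Asic3 in 11, whereas Asic2 did so in 2.

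Well medians followed the per-mouse picture for Trpv2 and Piezo2. Trpv2 had a median of 70.8 CPM over the 12 naive neuronal wells (21.6 to 227), 367.5 CPM over 9 wells at SNI day 1 (65.8 to 691) and 219 CPM over 8 wells at SNI day 3. At SCI day 1 and day 3 the medians were 117 and 162 CPM. The Piezo2 medians were 196, 189.5, 228, 258 and 217 CPM in naive, SNI day 1, SNI day 3, SCI day 1 and SCI day 3 wells. In glia-rich wells Trpv2 had a median of 0.897 CPM and Piezo2 of 1.41 CPM, and no more than 6 of the 20 reached 10 CPM for any of the 9 channels.

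The wider families were described by 53 companion genes: 16 other TRP channels, 12 other mechanosensory and thermosensory channels, 12 other acid sensors and ENaC relatives, and 13 partners and regulators. In whole DRG after SCI 45 were tested and 1 was called, beside 2.32% of all genes. It was Kcnk10, a heat- and stretch-sensitive potassium channel, at 22.5 ± 1.39 CPM against 28.5 ± 1.64 CPM (SD, n = 4; log2 fold change -0.36, SE 0.0793, adjusted p = 0.0674, edgeR). In sorted neurons with all wells edgeR called none of the 49 companions tested after either injury, and 10, 4, 5 and 2 had an unadjusted p under 0.05 at SNI day 1, SNI day 3, SCI day 1 and SCI day 3, beside 3519, 2992, 2981 and 2208 of all 23507 genes.

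Without glia-rich wells, 6 of 47 companions were called at SNI day 1 and 3 at SNI day 3, beside 8.17% and 7.57% of all genes. All were higher after injury, as were 1621 of the 1848 and 1442 of the 1712 genes called in all. Mcoln2, an endolysosomal TRP channel, had log2 fold changes of 5.53 (SE 1.40, adjusted p = 0.0465, edgeR) and 5.91 (adjusted p = 0.0470) from naive levels under 1 CPM on average. Ano1, a calcium-activated chloride channel that also responds to heat, stood at 47.2 ± 20.1 CPM (SD, n = 4) at SNI day 1 and 53.2 ± 5.99 CPM (n = 3) at SNI day 3 against 23.0 ± 26.4 CPM in naive mice, with log2 fold changes of 2.37 and 2.49 (adjusted p = 0.0315 and 0.0395). Tmem63c, an osmosensitive channel relative, had log2 fold changes of 1.87 and 1.83 (adjusted p = 0.0315 and 0.0503). The other 3 at day 1 were Tmc1 (log2 fold change 3.96, adjusted p = 0.0892) and the proton-sensing receptors Gpr65 and Gpr4, which are listed at 0 in all naive mice. Their levels at SNI day 1 were 3.03 ± 6.04 and 0.556 ± 1.11 CPM (SD, n = 4), uneven between mice and overlapping with the naive group. No companion was called after SCI in these wells, where 6 at day 1 and 6 at day 3 had an unadjusted p under 0.05, beside 3960 and 3299 of all 22620 genes.

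Markers moved in the same comparisons. Without glia-rich wells, Ntrk3, the neurotrophin-3 receptor of proprioceptors, was 1.68 higher on the log2 scale at SNI day 1 and 1.55 higher at SNI day 3. Spp1 and Ntrk2 were 2.30 and 2.46 higher at day 1, and Tubb3 and Stmn2, neuronal cytoskeleton genes, 0.78 and 1.16 higher at day 3. Large-fibre markers did not all move one way: Ldhb, of the same list as Ntrk3, Spp1 and Ntrk2, was lower at day 3 (-0.67, adjusted p = 0.0939, edgeR). Mrgprd of nociceptors was called higher at day 1 (adjusted p = 0.0517); with all wells it was at 0 reads in 5 of the 6 naive and 2 of the 4 SNI mice. S100b, a glia marker, was lower at day 3, at -0.50. Their part in the Trpv2 difference was not tested.

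Between sorted naive neurons and whole DRG, 3 of 47 companions were higher and 14 lower, beside 30.8% of all genes called, 3259 higher and 3062 lower. The split of all genes turned with scaling, as given above, and the companions were not counted under the other scaling. Tmem100, an adaptor of Trpa1 and Trpv1, was 4.63 higher on the log2 scale (adjusted p = 0.0297, edgeR), and Cdk5 and Fgf13 were 1.17 and 2.18 higher (adjusted p = 0.00515 and 0.0473). Among those lower, Piezo1, the sister of Piezo2 known from vascular cells, stood at 6.23 CPM in whole DRG and 0.0182 CPM in sorted neurons (log2 fold change -7.65). Kcnk18, a potassium channel of nociceptors, stood at 13.9 and 0.0429 CPM (-7.58), and Plcb3, a phospholipase downstream of itch and pain receptors, at 433 and 3.99 CPM (-6.15). Trpc5 and Trpv4, also TRP channels, had log2 fold changes of -7.19 and -4.49. Ano3, Pip5k1c and Gpr4 had log2 fold changes of -2.54, -1.67 and -5.32, and Kcnk9 and F2rl1 are listed at 0 in all sorted naive mice.

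Levels across the 22 sorted mice were compared with those of 23506 other genes by Pearson correlation of log2(CPM + 1), as a description. Depth and the makeup of the wells differed between the mice, and their part in these correlations was not tested. Piezo2 was most like Myo5a, Fbxw5 and Pip5k1c (r = 0.98, 0.97 and 0.97), and Trpv2 most like Tcaf1, Shc2 and Slc38a1 (0.95, 0.93 and 0.93). Pip5k1c, a kinase that makes the phosphoinositide required by several TRP channels, and Tcaf1, a TRP channel-associated factor, belong to channel regulation, although Tcaf1 was in none of the lists. Asic1 was most like Rbms2, Kif21b and Cdh12 (0.95, 0.94 and 0.94), Asic2 like Pdcl and Kat7 (0.92 and 0.90), and Asic3 like Aox1, Pcmt1 and Rffl (0.94, 0.91 and 0.90).

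For the low channels these likenesses rest on few mice. Trpv1 was most like Gfra3, the artemin receptor of peptidergic nociceptors, Celf6 and E330037G11Rik (r = 0.90, 0.88 and 0.81). Trpa1 was most like Mir27a, Bex4 and Bex1 (0.91, 0.90 and 0.89), Trpm8 like Hrh2, Gm26929 and Pbk (0.98, 0.95 and 0.93), and Trpm3 like Asb14, Lpar3 and Dhrs13 (0.75, 0.72 and 0.67). Among the channels themselves, the highest r was 0.79 for Trpv2 with Piezo2, followed by 0.75 for Piezo2 with Asic2 and 0.71 for Piezo2 with Asic1 and with Asic3. Trpv1 and Trpa1, with r = 0.55, and Asic1 and Asic3, with r = 0.44, were less alike.

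In the mm10 build Trpv1 (ENSMUSG00000005952.15) lies at chr11:73234292-73261242 and Trpv2 (ENSMUSG00000018507.16) at chr11:62574486-62600515. Asic3 (ENSMUSG00000038276.12) lies at chr5:24413392-24417835 and Asic1 (ENSMUSG00000023017.10) at chr15:99670368-99701130. The exons of these 4 genes share no bases with another annotated gene. RefSeq promoter windows of 300 bases, from 250 before to 50 after a transcription start in GRCm38.p6, were matched for 7 of the 9 channels, with 11 windows in all; Trpa1 and the Piezo2 gene had none.

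The windows of Trpv2 and Asic3 are shown because these channels had the clearest differences, after nerve crush in sorted neurons and after SCI in whole DRG. They were searched on both strands for the RUNX core TGTGGT, the AP-1 site TGAGTCA, the cyclic AMP response element TGACGTCA and the TATA box TATAAA. The first Trpv2 window lies at chr11:62574236-62574535 on the + strand (53.0% G or C) and the Asic3 window at chr5:24413201-24413500 on the + strand (62.0% G or C). Capitals mark the RUNX core, which is the only one of the 4 motifs in either window.
Trpv2: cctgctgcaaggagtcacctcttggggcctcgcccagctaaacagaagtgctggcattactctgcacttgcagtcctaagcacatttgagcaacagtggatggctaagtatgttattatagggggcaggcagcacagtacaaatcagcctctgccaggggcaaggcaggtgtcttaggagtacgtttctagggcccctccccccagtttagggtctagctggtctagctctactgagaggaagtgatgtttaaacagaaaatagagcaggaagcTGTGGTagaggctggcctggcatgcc
Asic3: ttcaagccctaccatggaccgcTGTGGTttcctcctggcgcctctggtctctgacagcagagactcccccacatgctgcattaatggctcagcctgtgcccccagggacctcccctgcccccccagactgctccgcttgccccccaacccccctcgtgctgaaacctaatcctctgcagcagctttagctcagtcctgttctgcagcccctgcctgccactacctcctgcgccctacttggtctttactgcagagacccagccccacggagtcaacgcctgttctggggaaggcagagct

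The RUNX core occurred in 16.8% of the 32851 windows of 27025 genes, the TATA box in 13.6%, the AP-1 site in 5.20% and the cyclic AMP response element in 1.79%. Among the 11 channel windows the RUNX core was found in the Trpv1 window 50 bases before the start, in 2 of the 3 Trpv2 windows, which overlap each other, in 1 of 2 Trpm3 windows and in the Asic3 window 228 bases before the start. The TATA box was found in the Trpm8 window 30 bases before the start, in 1 Trpv2 window and in 1 Asic2 window, the latter with a pair of overlapping matches after the start. The AP-1 site and the cyclic AMP response element were in none of the 11. A match is a description of letters and shows no binding.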

How the data were processed

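RNA-seq read counts per gene were deposited by the authors as raw counts for 74 libraries, 8 of whole DRG and 66 wells of sorted cells; the submitters' processing notes name cutadapt, PRINSEQ, STAR 2.5.3a, HTSeq 0.6.1, DESeq2 and the mm10 genome. Each file lists 53379 genes (53274 matched to GENCODE vM21) and 5 lines that name no gene, which were left out: reads aligned to several places were 21.5% to 25.8% of the total in whole DRG and 37.0% to 52.3% in wells, reads on no feature 7.73% to 9.82% and 2.01% to 11.8%, and ambiguous reads 2.79% to 3.13% and 2.10% to 4.30%. No 2 libraries were identical. Not used here were 7 tables of normalized values and of the authors' own comparisons (fold changes and p-values), with 123 per-sample columns in all; SNI in whole DRG, which only such a table holds, was not analysed here.

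Reads of the 3 wells were added up so that each mouse gave 1 replicate. Genes averaging 10 counts or more in whole DRG, and those reaching 20 reads in any sorted mouse, were tested with edgeR 4.0.16 (R 4.3.3, limma 3.58.1): TMM scaling, quasi-likelihood F-test, Benjamini-Hochberg adjustment over all genes tested, adjusted p under 0.1. Whole DRG was fitted on 8 mice, sorted neurons in 1 model over 22 mice with 2 RUVr factors from centred deviance residuals, and sorted naive mice against whole DRG with no covariate. The steps were run on simulated counts with known changes. Fold changes and calls had to be recovered for whole DRG only. For sorted neurons only the recovery of a simulated hidden factor was required, so their calls were not checked this way. CPM is counts over the library's reads on genes; RPKM divides it by the length of the union of exons. A well was glia-rich where 9 glia genes held more reads than 8 neuronal genes. DESeq2 1.42.0, other scalings, filters, factors and blocks, single sets (with no RUVr factor), same-day naive mice and leaving out each mouse were alternatives. Tables and plots were made with Python 3.11.15, pandas 2.3.3, numpy 2.4.6, scipy 1.17.1 and matplotlib 3.10.9.

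The named genes are the 9 channels, the up to 3 companion genes per list and direction with the smallest adjusted p under 0.1, and the 3 genes most correlated with each channel; marker genes named beside them, and Tmc1, Gpr65 and Gpr4, are those called. Results for a few genes chosen by these rules are not reported here. The members and lists were chosen with earlier results of these data known. The study left out some mice that the labels do not name, and all were kept here.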

Additional observations from a re-analysis of the deposited data

Results flagged for a closer look

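In each group of 4 to 6 mice the gap between the extreme mouse and its nearest neighbour was set against the group's range for every channel, 63 groups in all, and 16 stood out by Dixon's criterion. In 12 of the 16 the mouse was high for Trpv1, Trpa1 or Trpm8 in sorted neurons. Most sorted mice lie at or near 0 reads for Trpa1 and Trpm8, and Trpv1 ran from 0 to 14489 reads over the naive mice. The criterion's rate of 1 in 20 by chance assumes normal values, so it does not apply to these genes.

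Trpv1 stood at 254 CPM in naive mouse 5 against 0 to 3.18 CPM in the other 5, at 36.0 CPM in SCI day 1 mouse 4 against 0 to 5.09, and at 7.67 CPM in SCI day 3 mouse 4 against 0.0159 to 1.22. Trpa1 stood at 14.9 CPM in naive mouse 5 against 0 to 0.871, and at 3.57 CPM in SNI day 1 mouse 3 against 0 to 0.0328. Further Trpa1 values were 0.442 CPM in SNI day 3 mouse 2, which is 21 reads, 2.15 CPM in SCI day 1 mouse 3 and 0.807 CPM in SCI day 3 mouse 2. Trpm8 stood at 18.7 CPM in SCI day 3 mouse 4 against 0 to 0.118, and at 0.474 CPM in naive mouse 3, 2.06 CPM in SNI day 1 mouse 4 and 1.93 CPM in SCI day 1 mouse 4.

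Piezo2 stood at 0.719 CPM in SNI day 3 mouse 3, all of whose wells were glia-rich, against 206.5 to 234.5 CPM in the other 3. Asic2 stood at 17.6 CPM in SCI day 3 mouse 4 against 28.8 to 30.8. In whole DRG, Trpm3 stood at 51.9 CPM in SCI mouse 3 against 40.1 to 40.9, and Asic1 at 150 CPM in uninjured mouse 1 against 130 to 132. Why these mice stood apart was not tested.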

How the results depend on the processing

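Of 9 channels, 1 was called in whole DRG after SCI, and 0 were with a threshold of 0.05, without the low count filter or with the replicate block. At SNI day 1 the 0 channels called became 1, Trpv2, with DESeq2, with the mean count filter, without glia-rich wells, and without glia-rich wells and RUVr. Without glia-rich wells it became 1, Trpv2, at SNI day 3 and in SNI day 1 against SCI day 1, and with DESeq2 1, Trpm8, in SNI day 3 against SCI day 3. In sorted naive neurons against whole DRG the 3 called became 5 by library size alone or with DESeq2, and 2 with a threshold of 0.05 or without glia-rich wells. At SCI day 1 and day 3 it was 0 in every setting. With 1 mouse left out, the channels called ran from 0 to 1 in whole DRG, 0 to 2 at SNI day 1, 0 to 2 at SNI day 3, 0 to 1 in SNI day 1 against SCI day 1 and 2 to 6 in sorted naive neurons against whole DRG. The fits without glia-rich wells and RUVr, and those without glia-rich wells and 1 mouse, were chosen after seeing the data. Same-day naive mice could not be used in the comparisons of SNI with SCI. The cause was not tested for any of these changes.

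The number of all genes called also depended on the settings. In sorted naive neurons against whole DRG it was 6321, and 6567 by library size alone, 8017 with DESeq2 and 6880 without glia-rich wells. With 1 mouse left out it ran there from 4440 to 8097. In whole DRG after SCI the number was 408, and 202 at a threshold of 0.05, 929 with DESeq2, 549 without the filter and 127 with the replicate block. At SNI day 1 it was 161, and 50 at a threshold of 0.05, 1562 with DESeq2, 328 with the mean count filter, 0 with no RUVr factor, 10 with 1, 1 uncentred, 0 with the set as covariate, 1848 without glia-rich wells, 39 also without RUVr, 7 with the replicate block, 55 with same-day naive mice, and 1 and 0 in the sets FACS and FACS2018. At SNI day 3 it was 166, and in the same settings 7, 2236, 139, 0, 0, 2, 0, 1712, 14, 5, 193, 9 and 0. At SCI day 1 it was 4, with 1252 by DESeq2, 10 with DESeq2 size factors, 9 with the mean count filter, 49 without glia-rich wells, 2 with same-day naive mice, 4 in set FACS alone and 0 or 1 in the others. At SCI day 3 only DESeq2 called any, 1221. Between SNI and SCI, DESeq2 called 1116 at day 1 and 974 at day 3, and at day 1 there were 201 without glia-rich wells, 2 with 1 RUVr factor, and 1 each uncentred or with the replicate block. With 1 mouse left out the counts ran from 104 to 640 in whole DRG, 30 to 2090 at SNI day 1, 9 to 2006 at SNI day 3, 1 to 536 at SCI day 1, 0 to 60 at SCI day 3, and 0 to 497 and 0 to 64 between the injuries at day 1 and day 3.

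Mice of different groups share a replicate number and, in sorted neurons, the set. Deviations from the group mean (log2 CPM) in same-numbered pairs of whole DRG had a median r of 0.011 (-0.158 to 0.257), against -0.020 (-0.313 to 0.306) in other pairs. In sorted neurons the median was 0.099 (-0.025 to 0.414) in pairs of the same set and number, against -0.039 (-0.340 to 0.269) in other pairs. The replicate block, there of set and number together, was therefore an alternative. With it Trpv2 at SNI day 1 had a log2 fold change of 2.04 (adjusted p = 0.325, edgeR) and Asic3 in whole DRG an adjusted p of 0.193. Scaling library sizes by TMM moved 0 of 63 levels per length by more than 1 SD. Wells at 1494217 reads limit what is seen of the lowest channels: 10 CPM is few reads there. The log2 fold changes of the 9 channels over the settings were on the same side of 0 except as follows, each written as gene and log2 fold change, with the range over leave-outs for the genes that changed. The cause was not tested.

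In SNI day 1 against naive, Trpv1 and Trpa1 turned to -4.19 and -2.01 with no RUVr factor, and Trpv1 and Trpa1 turned to -1.10 and -0.54 with 1 RUVr factor. Trpa1, Trpm3, Asic1 and Asic2 turned to -5.31, -0.94, 0.07 and -0.78 with uncentred RUVr residuals, and Trpv1, Trpa1, Trpm8 and Piezo2 turned to -3.22, -2.65, -1.73 and 0.13 with the set as covariate. Piezo2 and Asic2 turned to 0.06 and -0.03 with the glia-rich wells left out, and Trpv1, Trpa1, Trpm3, Piezo2 and Asic2 turned to -4.70, -2.44, -0.01, 0.05 and -0.08 with neither glia-rich wells nor RUVr. Trpa1, Trpm8 and Asic2 turned to -3.30, -2.13 and -0.04 with the replicate block, and Trpa1, Trpm3, Asic1 and Asic2 turned to -1.44, -0.01, 1.19 and -0.20 with same-day naive mice. Trpa1, Trpm8 and Asic2 turned to -4.12, -3.13 and -0.25 with set FACS alone, and Trpv1, Trpa1, Trpm3, Piezo2 and Asic3 turned to -5.23, -2.87, -0.15, 0.31 and 3.12 with set FACS2018 alone. Asic2 turned to -0.01 with DESeq2. Trpv1 spanned 0.02 to 5.19, Trpv2 1.90 to 2.57, Trpa1 -4.21 to 5.33, Trpm8 -2.64 to 5.13 and Trpm3 -0.81 to 1.66 with 1 mouse left out of SNI day 1 against naive. Piezo2 spanned -0.40 to 0.22, Asic1 -0.99 to 0.17, Asic2 -0.42 to 0.37 and Asic3 -1.35 to 0.46 in these fits.

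In SNI day 3 against naive, Trpv1, Trpm3, Asic1 and Asic2 turned to -3.15, 0.10, 0.29 and 0.33 with no RUVr factor, and Asic2 turned to 0.14 with 1 RUVr factor. Trpm8 turned to 0.28 with uncentred RUVr residuals, and Trpv1, Trpm3, Asic1 and Asic2 turned to -0.07, 0.10, 0.79 and 0.34 with the set as covariate. Trpm3, Piezo2, Asic1 and Asic2 turned to 1.12, 0.10, 0.60 and 0.36 with the glia-rich wells left out, and Trpv1, Trpm3, Piezo2, Asic1 and Asic2 turned to -3.54, 0.51, 0.11, 0.26 and 0.30 with neither glia-rich wells nor RUVr. Trpm3 turned to 0.17 with the replicate block, and Trpa1 and Trpm3 turned to 2.68 and 0.18 with same-day naive mice. Trpm3, Asic1 and Asic2 turned to 0.39, 0.21 and 0.42 with set FACS alone, and Trpv1, Trpm8, Asic1, Asic2 and Asic3 turned to -6.22, 0.34, 0.59, 0.13 and 2.05 with set FACS2018 alone. Asic2 turned to 0.02 with DESeq2 size factors, and Asic2 turned to 0.02 with the mean count filter. Trpv1 spanned -0.06 to 7.41, Trpv2 -0.32 to 1.64, Trpa1 -6.58 to 4.82, Trpm8 -5.07 to 1.23 and Trpm3 -0.40 to 2.20 with 1 mouse left out of SNI day 3 against naive. Piezo2 spanned -1.57 to 0.26, Asic1 -1.64 to 1.10, Asic2 -1.29 to 0.73 and Asic3 -2.64 to 0.07 in these fits.

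In SCI day 1 against naive, Trpv1 and Trpa1 turned to -2.62 and -2.71 with no RUVr factor, and Trpa1 turned to -1.09 with 1 RUVr factor. Trpa1, Trpm3, Asic1 and Asic2 turned to -3.51, -0.63, 0.15 and -0.31 with uncentred RUVr residuals, and Trpv1, Trpa1 and Trpm8 turned to -1.47, -3.42 and -1.36 with the set as covariate. Trpv1, Trpa1 and Trpm3 turned to -3.48, -3.20 and -0.44 with neither glia-rich wells nor RUVr, and Trpa1 and Trpm8 turned to -2.84 and -1.41 with the replicate block. Trpa1 and Asic1 turned to -1.82 and 1.05 with same-day naive mice, and Trpa1, Trpm8, Asic1, Asic2 and Asic3 turned to -6.89, -2.09, 0.23, -0.28 and -1.42 with set FACS alone. Trpv1, Trpa1 and Trpm3 turned to -3.67, -3.35 and -0.72 with set FACS2018 alone. Trpa1 spanned -3.02 to 4.70, Trpm8 -1.38 to 5.03, Trpm3 -0.87 to 1.15, Asic1 -1.96 to 0.15 and Asic2 -0.11 to 0.61 with 1 mouse left out of SCI day 1 against naive.

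In SCI day 3 against naive, Trpv1 turned to -4.74 with no RUVr factor, and Trpv1 turned to -0.34 with 1 RUVr factor. Trpv1 turned to -0.16 with uncentred RUVr residuals, and Trpv1, Piezo2 and Asic1 turned to -3.49, 0.00 and 0.00 with the set as covariate. Trpa1, Piezo2, Asic1 and Asic3 turned to 0.38, 0.20, 0.26 and 0.59 with the glia-rich wells left out, and Trpv1, Piezo2, Asic1 and Asic2 turned to -4.96, 0.22, 0.02 and -0.05 with neither glia-rich wells nor RUVr. Trpv1 turned to -0.37 with the replicate block, and Trpa1 turned to 3.53 with same-day naive mice. Trpv1, Trpa1, Trpm8, Piezo2 and Asic1 turned to -0.11, 0.43, -0.52, 0.03 and 0.38 with set FACS alone, and Trpv1 and Asic3 turned to -5.73 and 2.48 with set FACS2018 alone. Trpv1 spanned -0.94 to 4.89, Trpa1 -3.76 to 5.37, Trpm8 -0.92 to 9.26, Trpm3 -2.63 to 0.95 and Piezo2 -0.81 to 0.37 with 1 mouse left out of SCI day 3 against naive. Asic1 spanned -2.06 to 0.70, Asic2 -0.21 to 1.11 and Asic3 -2.20 to 1.09 in these fits.

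In SNI day 1 against SCI day 1, Asic1 turned to -0.06 with no RUVr factor, and Trpa1 and Asic1 turned to -1.80 and -0.08 with uncentred RUVr residuals. Trpm3 turned to 0.34 with the glia-rich wells left out, and Trpm3 and Asic1 turned to 0.42 and -0.02 with neither glia-rich wells nor RUVr. Trpa1 turned to -0.46 with the replicate block, and Asic1, Asic2 and Asic3 turned to -0.25, 0.04 and 0.04 with set FACS alone. Trpm8 and Trpm3 turned to 0.03 and 0.57 with set FACS2018 alone. Trpv1 spanned -3.05 to 0.68, Trpv2 1.69 to 2.13, Trpa1 -4.49 to 4.03, Trpm8 -5.14 to 3.75 and Trpm3 -1.24 to 1.16 with 1 mouse left out of SNI day 1 against SCI day 1. Asic1 spanned -0.41 to 1.28 and Asic2 -0.49 to 0.06 in these fits.

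In SNI day 3 against SCI day 3, Trpv2 turned to 0.29 with no RUVr factor, and Trpv2 turned to 0.29 with the set as covariate. Trpv2 and Asic2 turned to 0.36 and 0.36 with the glia-rich wells left out, and Trpv2 and Asic2 turned to 0.36 and 0.36 with neither glia-rich wells nor RUVr. Trpv2, Asic1 and Asic2 turned to 0.34, -0.17 and 0.18 with set FACS alone, and Trpv1, Trpv2 and Trpa1 turned to -0.49, 0.10 and 0.25 with set FACS2018 alone. Trpv1 spanned -0.03 to 3.73, Trpv2 -1.33 to 0.68, Trpa1 -6.98 to 2.63, Piezo2 -1.18 to 0.51 and Asic1 -0.83 to 1.62 with 1 mouse left out of SNI day 3 against SCI day 3. Asic2 spanned -1.58 to 0.51 and Asic3 -2.34 to 0.86 in these fits.

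In sorted naive against uninjured whole DRG, Trpv1 turned to 0.34 with the glia-rich wells left out, and Trpv2 turned to -0.42 with library size scaling. Trpv1 spanned -7.31 to -0.04, Trpa1 -7.74 to -3.12, Trpm3 -2.80 to -2.15, Asic2 -1.43 to -0.87 and Asic3 1.69 to 2.34 with 1 mouse left out of sorted naive against uninjured whole DRG.

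Trpm3 spanned -0.12 to 0.04, Piezo2 -0.02 to 0.15 and Asic3 0.25 to 0.31 with 1 mouse left out of whole DRG after SCI.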

Other observations

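Fibroblast markers were concentrated in single sorted mice. The 4 markers summed to 45410 CPM in SCI day 3 mouse 3, of which Dcn made up 42460 CPM, and to 8831 CPM in naive mouse 5, where Dcn stood at 8589 CPM. SNI day 1 mouse 3 followed at 747.8 CPM, and no other sorted mouse passed 224.4 CPM. Macrophage markers summed to 419.1 CPM in naive mouse 6 and 349.0 CPM in SCI day 3 mouse 3. The red blood cell markers summed to 1239 CPM in naive mouse 1, led by Hbb-bs at 892.2 CPM.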
